A study of Mus musculus with 8 samples.

Results

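Among the 35149 tiles of 1 kb examined, 446 (1.27%) read between 35% and 65% methylated in all 8 libraries of the series. They hold 1503 CpGs. Each tile lay on chromosomes 1 to 19 and held 3 to 10 CpGs that had at least 10 reads in every library. Its level was the mean of the CpG methylation fractions, weighted by coverage. The tiles were chosen by these levels, so the levels themselves are given as a description with no test. For brevity these 446 tiles are called the intermediate tiles, and the 35149 tiles are called the eligible tiles.

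The libraries came from mouse embryonic stem cells of strain 129/SvP, plated at low density in medium with serum (FBS) and the cytokine LIF, which maintains self-renewal. The cells received 1 mM L-proline together with 500 µM vitamin C, L-proline alone, vitamin C alone, or no supplement. Each of these 4 treatments was collected on day 2 and on day 5 and measured by reduced representation bisulfite sequencing (RRBS), with 1 library for each treatment and day and no replicate. Median coverage over the CpGs of the intermediate tiles was 22 to 62 reads per library.

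Bisulfite treatment converts unmethylated cytosine and leaves methylated cytosine, and it does not tell 5-methylcytosine from 5-hydroxymethylcytosine. A level near the middle of the scale can arise when 1 parental copy is methylated and the other is not, as at imprinted genes. It also arises when cells of a culture differ, or when neighbouring CpGs differ and their average falls in between. A tile level alone does not separate these cases, so the CpGs inside the tiles were examined one by one. RRBS customarily cuts DNA at CCGG, a site that holds a CpG, and the cut ends are then filled in with new nucleotides before adapters are joined. The enzyme and the library steps are not given in the labels used here.

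Because RRBS customarily reads fragments that run from 1 CCGG to the next, fragments of this kind whose letters could be read are shown first, to show where CpGs can stand in them. They are the 5 such fragments, lying in promoter windows whose position could be found, in which the CpGs of the 2 CCGG sites lay 42 to 49 bases apart and the CpGs between them averaged 30% or more. The start of the only intermediate tile that overlaps such a window is shown last. Letters are from RefSeq (GRCm38.p6, plus strand), positions are those of the deposited files (mm9, plus strand), and capitals mark CCGG and CG.
Gm10863, chr15:78996485-78996536: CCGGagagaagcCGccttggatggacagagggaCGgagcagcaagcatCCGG
Sycp1, chr3:102740070-102740121: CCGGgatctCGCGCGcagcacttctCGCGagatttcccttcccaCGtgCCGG
Cda, chr4:137924056-137924107: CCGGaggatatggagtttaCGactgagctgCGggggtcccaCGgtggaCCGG
Gm31690, chr15:95484714-95484760: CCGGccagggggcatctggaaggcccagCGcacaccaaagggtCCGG
Btbd18, chr2:84499205-84499254: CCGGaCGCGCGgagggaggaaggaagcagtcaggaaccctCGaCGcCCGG
Gm52707, chr4:126911004-126911056: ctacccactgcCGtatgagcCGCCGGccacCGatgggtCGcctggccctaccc

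The level of the intermediate tiles had a median over tiles of 54.0% on day 2 and 52.6% on day 5 with both supplements. It was 59.2% and 61.7% on the same days with L-proline, 50% on each day with vitamin C, and 54.8% and 58.7% in untreated cells. All medians lay inside the bounds that chose the tiles, and the L-proline library of day 5 was crowded against the upper one. Within a tile, the lowest and the highest library differed by a median of 16.5 percentage points, from 3.20 points in the steadiest tile to 29.7 in the most variable. Just inside the lower bound was the tile on chromosome 14 from 61855001 to 61856000, with a lowest library of 35.01%, and just outside it the tile on chromosome 8 from 127420001 to 127421000, at 34.97%. At the upper bound, the tile on chromosome 9 from 99819001 to 99820000 reached 65% and the tile on chromosome 15 from 85731001 to 85732000 reached 65.02%. A further 524 eligible tiles missed the rule by 1 library above 65%, and 145 by 1 library below 35%.

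**Figure D1:**
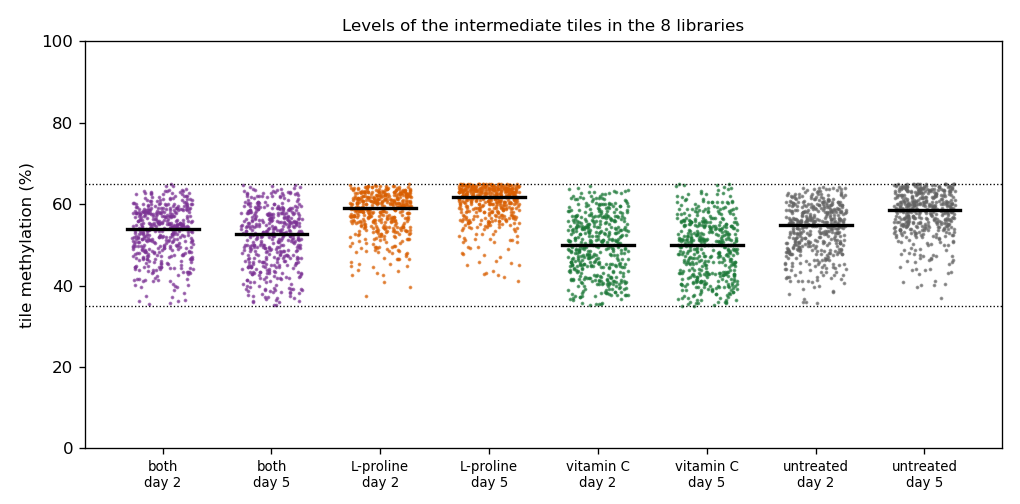
Methylation (%) of each of the 446 tiles in each of the 8 libraries. Points are tiles, black bars are medians and dotted lines are the bounds of 35% and 65% that chose the tiles. The points of the L-proline library of day 5 gather under the upper bound, with a median of 61.7%.

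Many CpGs inside the intermediate tiles stood away from the level of their tile. Over the 8 libraries, 41.9% ± 2.38 (SD, n = 8 libraries) of their CpG values lay between 35% and 65%, and 60.6% between 25% and 75%. In other eligible tiles at 35% to 65% in the same library, 53.2% ± 1.82 of CpG values lay between 35% and 65%. The difference was -11.2 ± 1.74 points and was negative in 8 of 8 libraries. It is a description with no test, because the same CpG values enter the tile levels that chose the tiles. The libraries also share most of their tiles, and the other tiles had to be at this level in the library concerned and not in all 8.

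The spread between CpGs was larger than counting error gives. Within an intermediate tile the SD of CpG levels was 29.4 to 33.3 points per library, where counting error alone gives 6.46 to 11.1 points. In the other tiles at this level it was 19.6 to 22.3 points. With the 8 libraries pooled, 48.4% of the 1503 CpGs lay at 35% to 65%, 22.8% at 80% or above and 7.52% at 20% or below. At the top of the scale the share of values at 80% or above ran from 15.3% in the vitamin C library of day 5 to 34.5% in the L-proline library of day 5.

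**Figure D2:**
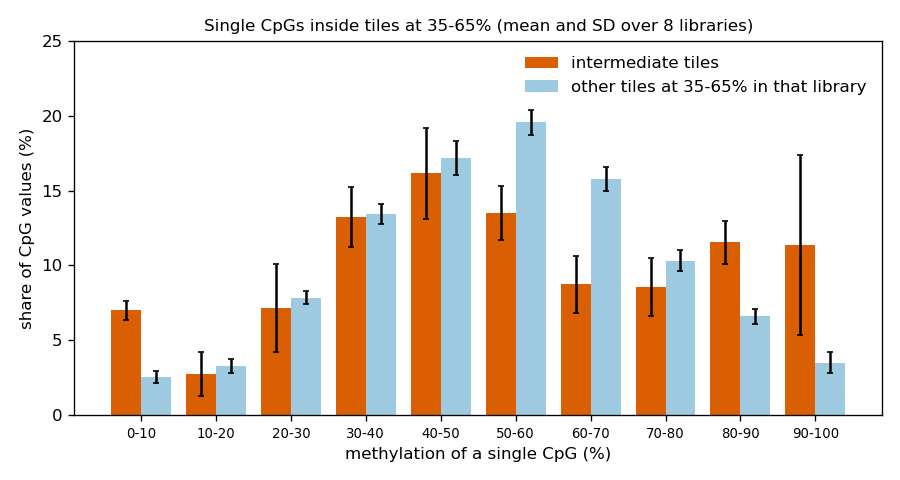
Share (%) of single CpG values in each 10-point class of methylation (%), for the intermediate tiles (orange) and for other eligible tiles at 35% to 65% in the same library (blue). Bars are means and error bars SDs over 8 libraries. The intermediate tiles have more values at 0% to 10% (6.99% against 2.54%) and at 90% to 100% (11.4% against 3.50%), and fewer at 50% to 60% (13.5% against 19.6%).

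Tiles in which every CpG stood in the middle were a minority. A tile was called uniform where each CpG had 25% to 75% over the pooled libraries, and mixed where it held a CpG at 20% or below and another at 80% or above. Of the 446 intermediate tiles, 65 (14.6%) were uniform and 74 (16.6%) mixed, and 307 were neither. Among the 34703 other eligible tiles, 9.22% were uniform and 1.35% mixed. Among the 13732 tiles at 35% to 65% in 1 to 7 libraries, 23.3% were uniform and 2.83% mixed. Because the tile mean enters both the choice of tiles and these classes, the shares are given without a test.

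The most frequent arrangement was a high CpG between a pair of lower ones. In 269 intermediate tiles (60.3%), all of 3 CpGs, the middle CpG stood at least 20 points above both outer CpGs. This arrangement was found in 2.26% of the other eligible tiles and in 5.56% of those at 35% to 65% in 1 to 7 libraries. Only tiles of 3 CpGs can show it, and these were 81.6% of the intermediate and 36.7% of the other eligible tiles. The classing by arrangement was chosen after the CpG values had been seen. Over the 269 tiles the pooled medians were 42.5% for the first CpG, 85.6% for the middle one and 41.1% for the last. The outer CpGs stood at a median of 49.51% of the level of their middle CpG, with quartiles of 46.7% and 52.5%, and in 251 of the 269 this ratio lay between 40% and 60%. The bounds on the tile level and the 20 points of the class limit this ratio, so it is a description with no test. Outer and middle CpGs had nearly equal coverage, with a median ratio of 0.999.

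The ratio was similar in each library while the level moved. With both supplements, the medians of the first, middle and last CpG were 41.2%, 83.3% and 40.5% on day 2, and 40%, 81.8% and 38.1% on day 5. With L-proline they were 45.6%, 90.7% and 44.4% on day 2, and 47.8%, 93.9% and 44.4% on day 5. With vitamin C they were 38.2%, 80.6% and 36.5% on day 2, and 37.5%, 78.9% and 35.7% on day 5. In untreated cells they were 41.7%, 84.5% and 41.4% on day 2, and 45.5%, 89.7% and 44.4% on day 5. The middle CpG was highest with L-proline and lowest with vitamin C on both days, and so was the first CpG.

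The tile on chromosome 14 from 90916001 to 90917000 illustrates the arrangement and had the second smallest range over libraries, 3.26 points. Its first CpG, at position 90916358, read 33.3% and 61.5% with both supplements on day 2 and day 5, 35.8% and 61.5% with L-proline, 47.2% and 57.1% with vitamin C, and 47.0% and 45% in untreated cells. Its middle CpG, 30 bases on, read 96.5% and 88.5% with both, 94.3% and 88.5% with L-proline, 86.1% and 100% with vitamin C, and 88.9% and 90.5% in untreated cells. Its last CpG, 45 bases from the first, read 61% and 35.7% with both, 60.4% and 42.9% with L-proline, 54.1% and 33.3% with vitamin C, and 53.8% and 57.1% in untreated cells. The middle CpG was above both outer CpGs in every library. The outer CpGs varied far more between libraries than the tile did. In the steady tile on chromosome 1 from 4430001 to 4431000 (range 3.55 points), the pooled levels were 44.95%, 77.0% and 48.1%, over a span of 43 bases.

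The arrangement was tied to a distance. Of the 269 tiles, 266 had outer CpGs 42 to 49 bases apart. Among all eligible tiles of 3 CpGs, 311 of 2280 (13.6%) with this span were intermediate tiles, against 53 of 10804 (0.491%) with any other span. Tiles of 3 CpGs made up 364 of the 446 intermediate tiles (81.6%) and 36.7% of the other eligible tiles. Counting tiles of any number of CpGs, 374 intermediate tiles (83.9%) held a pair of CpGs 42 to 49 bases apart with another CpG between them, as did 38.4% of the other eligible tiles.

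The same distance marked tiles that the rule had not chosen. Eligible tiles of 3 CpGs with a middle CpG of 80% or more were taken by their span, with the intermediate tiles left out. The outer CpGs had medians of 85.6% to 89.1% at each span of 30 to 41 bases, then 48.8% to 77.9% at each span of 42 to 49 bases, and 85.4% to 88.3% at each span of 50 to 60 bases. Their lower quartile was 82.2% at 41 bases, 47.7% at 42 bases, 45.4% at 49 bases and 80.7% at 50 bases, so the change came within a single base at either side. The middle CpG had medians of 86.9% to 90.9% throughout. Averaged over these tiles, the outer CpGs differed from the middle one by -23.1 points in the 1011 tiles of 42 to 49 bases and by -3.87 points in the 716 tiles of 34 to 41 or 50 to 57 bases. The difference was -19.2 ± 1.84 points (SD, n = 8 libraries), negative in 8 of 8. A two-sided exact permutation test that flips the signs of the library differences gave p = 0.0078125, the smallest for 8 libraries, and 0.0234 after Benjamini-Hochberg adjustment over 6 tests. Among the 6 is the test of the share of CpG values, which enter the choice of tiles. Its equal p lowers the adjusted value here. The libraries read the same tiles, so the p-value covers the spread between libraries alone, and the test was chosen after the arrangement had been seen in the intermediate tiles.

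**Figure D3:**
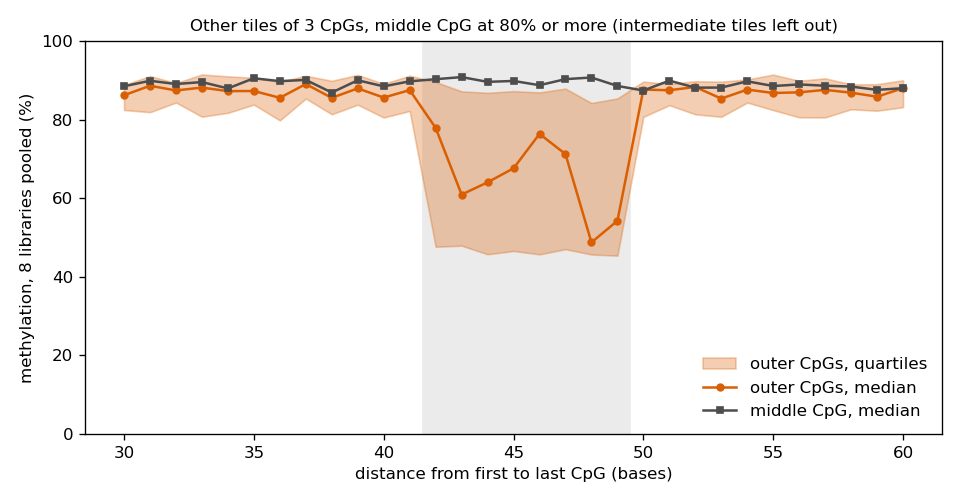
Pooled methylation (%) of the outer CpGs (orange: median and quartiles) and of the middle CpG (grey: median) against the distance in bases from the first to the last CpG, in eligible tiles of 3 CpGs whose middle CpG was at 80% or more, with the intermediate tiles left out. The shaded band is 42 to 49 bases, inside which the outer medians are 48.8% to 77.9% while the middle CpG remains at 88.6% to 90.9%.

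Tiles of this span fell into separate classes. Of the 1011 tiles of 42 to 49 bases with a middle CpG of 80% or more, intermediate tiles left out, 462 (45.7%) had outer CpGs at 40% to 60% of the middle one and 483 (47.8%) at 80% or more of it. Between these classes lay 60 (5.93%), and 6 lay below them. At 34 to 41 bases a ratio of 40% to 60% was found in 1.32% of such tiles, and at 50 to 57 bases in 0 of 263. When the CpGs of each such spaced pair were set aside in the 374 intermediate tiles that had one, the CpGs that remained had a median tile level of 81.4%, with quartiles of 72.0% and 87.7%. Of the 374, 13 were then still at 35% to 65% in all 8 libraries, 182 were above 65% in all 8, 10 were below 35% in all 8 and 169 crossed a bound. In the 266 classed by a high middle CpG, a higher remainder follows from the class. These values are thus a description, and they were not set against other eligible tiles.

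The promoter fragments printed above let the sites be read. In 18 promoter fragments of 42 to 49 bases whose inner CpGs averaged 10% or more, the CpGs of the CCGG ends stood at a median of 63.5% of the inner ones, with quartiles of 49.4% and 71.8%. These 18 were among 1288 fragments of that length. In 61 such fragments of 50 to 100 bases the median ratio was 79.0%, with quartiles of 60.4% and 93.9%. In 20 of 101 to 300 bases it was 83.0%, with quartiles of 65.1% and 98.2%. Both quartile ranges overlap that of the shorter fragments. For the window of Gm10863 the pooled levels from the first CpG to the last were 51.1%, 71.0%, 75.8% and 52.0%. In Gm31690 they were 28.6%, 36.5% and 22.3%. In the window of Sycp1, a gene for a protein of the meiotic synaptonemal complex, the ends averaged 39.1% and the inner CpGs 62.1%. In that of Cda, which encodes cytidine deaminase, the ends averaged 17.2% and the inner CpGs 37.6%, and in Btbd18 the order was turned round, with 35.1% at the ends and 31.0% inside. No mm9 genome was used here, so whether the outer CpGs of the intermediate tiles stand in CCGG sites was not tested. Whether the filling-in of fragment ends, the read length or the way reads of both strands were joined had a part in the levels of the outer CpGs was not tested.

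The tile that begins in the Gm52707 window had 5 CpGs, the first 4 of which lie in the printed letters. The first, next to the CCGG, read 71.1% over the pooled libraries (12 to 30.4 reads per library). The next, inside the CCGG, read 26.0% (25 to 79 reads), and the following ones 47.5%, 47.0% and 43.4%. Over the pooled libraries the CpG inside the CCGG was thus the lowest of the tile. It read 24.1% and 36.0% on day 2 and day 5 with both supplements, 26.8% and 17.6% with L-proline, 32.1% and 35.9% with vitamin C, and 16.7% and 24.1% in untreated cells. Tile levels were 39.6% to 55.6% over the libraries.

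Another arrangement joined a CpG near 0 to highly methylated neighbours. In 81 intermediate tiles (18.2%) a CpG read 5% or less over the pooled libraries, and in 55 of them it did so in each of the 8. The other CpGs of these 81 tiles averaged 42.8% to 92.3%, with a median of 78.1%. In 75 (16.8%) they averaged 60% or more, an arrangement found in 365 of the other eligible tiles (1.05%). A CpG near 0 beside such neighbours brings the tile mean toward the middle. The choice of tiles therefore favours this arrangement, and the shares carry no test. In 76 of the 81 a single CpG was near 0, and in 40 it stood between other CpGs. Only 4 tiles had both arrangements, but the first was defined for tiles of 3 CpGs with a high middle CpG. The spacing itself was shared more widely. Of the 72 intermediate tiles without a spaced pair, all but 30 had a CpG near 0. The remaining tiles among the 81 held a spaced pair, so the count of 4 does not show that the arrangements were separate in spacing.

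The tile with the smallest range over libraries, 3.20 points, was of this kind. It lies on chromosome 11 from 67050001 to 67051000 and read 58.1% and 58.7% on day 2 and day 5 with both supplements, 58.7% and 59.1% with L-proline, 61.3% and 58.8% with vitamin C, and 60.4% and 60.2% in untreated cells. Its first CpG read 84.0% to 88.0% and its next, 6 bases on, 86.4% to 96.0%. Its last CpG, 34 bases from the first, read 0% in 7 libraries and 2.3% in the L-proline library of day 5. The tile level therefore stood for CpGs of which none was near it.

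The tile on chromosome 2 from 119304001 to 119305000 held 2 CpGs at 0.297% and 0% followed within 49 bases by 3 at 82.8%, 89.6% and 77.3%. On chromosome 6, the tile from 104981001 to 104982000 ran the other way, with 73.5% and 94.7% followed by 0.804%, 0.812% and 2.02%. These had the largest SDs between CpGs among the 41 intermediate tiles with 5 or more CpGs. The files place CpGs by the mm9 reference and the cells are of strain 129/SvP. Whether the positions near 0 are CpGs in this strain was not tested. The 3 intermediate tiles of highest coverage were also of this kind: on chromosome 12 from 60370001, on chromosome 7 from 58382001 and on chromosome 13 from 87325001, each had 1 CpG near 0, at 3.07%, 1.29% and 1.52% in that order of tiles, and the others at 56.1% to 73.2%. Their mean coverage per CpG and library was 899, 511 and 280 reads, against a median of 38.8 over the intermediate tiles. In each, the CpG near 0 lay 45 bases from the first. Whether these tiles are copies of a repeat was not tested.

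**Figure D4:**
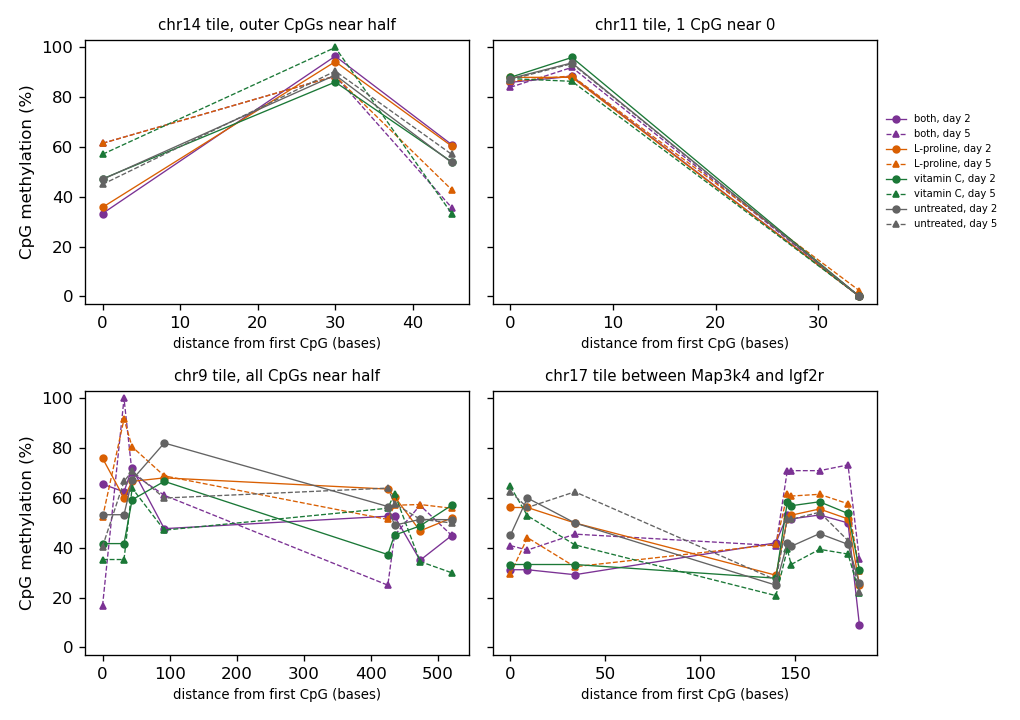
Methylation (%) of each CpG against its distance in bases from the first CpG of the tile, in 4 intermediate tiles; lines are libraries, coloured by treatment, solid for day 2 and dashed for day 5. The tile on chromosome 14 has a high CpG between lower ones, that on chromosome 11 ends in a CpG at 0% to 2.3%, and the CpGs of those on chromosomes 9 and 17 had pooled levels of 46.7% to 69.8% and 24.6% to 54.5%.

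Neither arrangement was present in 100 intermediate tiles (22.4%), against 71.0% of the other eligible tiles. Of the 100, 43 were uniform. These 43 were 9.64% of the intermediate tiles, close to the 8.98% of the other eligible tiles of that kind. Tiles with neither a spaced pair nor a CpG near 0 numbered 30 (6.73%), against 49.7% of the other eligible tiles. In the 72 intermediate tiles without a spaced pair, 27.7% ± 2.90 (SD, n = 8 libraries) of CpG values lay at 35% to 65%, against 54.9% ± 2.19 in other tiles without such a pair at this level. In the 30 that also lacked a CpG near 0, the share was 50.1% ± 3.19, against 56.8% ± 2.35 in other tiles of that kind, lower in 7 of 8 libraries. In tiles of 3 CpGs the shares were 41.9% ± 3.31 and 55.2% ± 2.23. These comparisons were added after the data had been seen and are descriptions with no test. Among these comparisons, the 30 tiles with neither a spaced pair nor a CpG near 0 thus came closest to the other tiles.

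Tiles whose CpGs all stood near the tile level could still vary widely between libraries. On chromosome 3, the tile from 23206001 to 23207000 had 6 CpGs with pooled levels of 44.9% to 56.7%, the smallest SD among tiles of 5 or more CpGs, 5.12 points. It read 48.9% and 49.2% with both supplements on day 2 and day 5, 56.1% and 55.8% with L-proline, 35.8% and 35.8% with vitamin C, and 61.8% and 54.1% in untreated cells. Both vitamin C libraries were its lowest, and its range was 26.0 points. The tile on chromosome 2 from 167421001 to 167422000, with 4 CpGs at 46.8% to 58.5%, ranged from 35.1% with both supplements on day 5 to 64.3% with L-proline on day 2. The tile had 70 to 138 reads per library, so counting error is part of this range.

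The intermediate tiles were scattered rather than grouped. Their share of the eligible tiles was 0.975% to 1.62% over the 19 autosomes, and on chromosome X, which the rule left out, the same bounds held for 7 of 447 tiles (1.57%). The median distance between neighbouring intermediate tiles was 2763000 bases. Another intermediate tile lay within 10 kb of 2 of the 446 (0.448%, 95% Wilson interval 0.123% to 1.62%), against 0.922% of the other eligible tiles. Within 50 kb the shares were 2.69% and 3.80%, and within 100 kb they were 4.48% and 7.26%. No grouping beyond that of the eligible tiles was thus detectable at these distances.

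**Figure D5:**
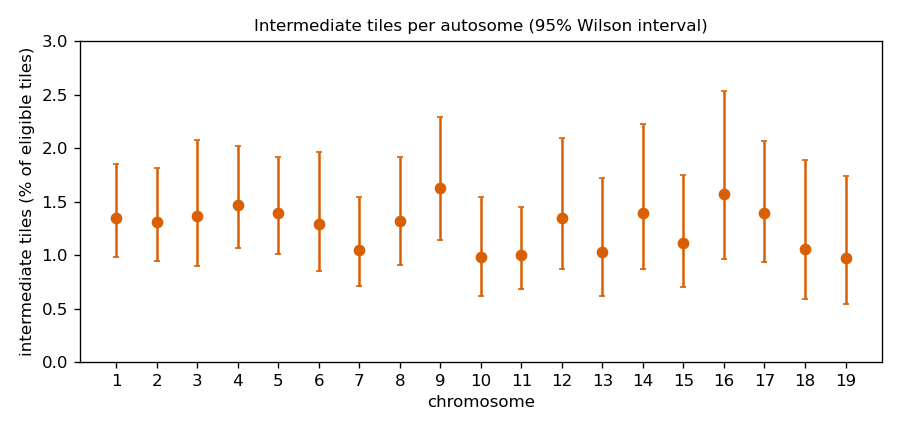
Intermediate tiles as a share (%) of the eligible tiles of each autosome, with 95% Wilson intervals, which cover counting error only. The shares run from 0.975% on chromosome 19 to 1.62% on chromosome 9 and every interval overlaps every other.

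A single chain joined adjacent tiles. It lies on chromosome 9 from 44523001 to 44525000, with 8 CpGs in each of its tiles, between the placed promoters of Ccdc84 and Tmem25. The first tile read 52.5% and 53.1% on day 2 and day 5 with both supplements, 60.2% and 64.6% with L-proline, 47.9% and 49.4% with vitamin C, and 58.5% and 59.1% in untreated cells. The next tile read 51.9% and 53.1% with both, 49.2% and 60.6% with L-proline, 41.6% and 48.3% with vitamin C, and 50.6% and 56.2% in untreated cells. In both tiles the vitamin C library of day 2 was the lowest and the L-proline library of day 5 the highest. The pooled levels of the 16 CpGs ran from 34.5% to 69.8%, so none stood near 0 or near full methylation.

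Few intermediate tiles had an eligible tile directly beside them. Of 37 such neighbours, which lay beside 35 intermediate tiles, 8 had a mean of 35% to 65%, 25 were above and 4 below. The median of the 37 was 74.5%. The 8 include the 2 tiles of the chain. In a single library, 11.4% to 19.6% of all eligible tiles lay at 35% to 65%. The share by mean over libraries was not counted for all eligible tiles, so the 8 cannot be read as many or few. The intermediate tiles also held 352 CpGs left out by the rule for want of reads in some library. Their 1410 values in libraries where they were listed had a median of 76.8%, with 21.1% at 35% to 65% and 46.0% at 80% or above. Apart from the chain, neither set entered the choice of tiles.

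Promoters were near few of the tiles. The spacing of CpGs placed 7079 of 31396 RefSeq promoter windows on the coordinates of the files, which favours windows rich in CpGs. Of the 435 intermediate tiles on the 18 autosomes with placed windows, 15 (3.45%) lay within 2 kb of one, against 8.89% of other eligible tiles, and within 5 kb there were 23 (5.29%), against 11.9%. The tile of Gm52707 alone overlapped a window (0.230%, against 3.78%).

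Imprinted genes, which are expressed from 1 parental copy, are a textbook case of intermediate methylation in every cell. Of 307 intermediate tiles whose flanking placed promoters lay within 1.5 Mb, 4 had a gene of a list of 53 imprinted genes between those promoters. Promoters were placed for 12 of the 53 genes. The same count was not made for the other eligible tiles, so the 4 cannot be read as many or few. These 4 tiles were singled out after their values had been seen, and their distance from the regions that control imprinting was not tested. On chromosome 7, the tile from 6683001 to 6684000 lies between the promoters of Zfp28 and Vmn2r29, an interval that holds Peg3, Usp29 and Zim1, a cluster of imprinted genes. Its 3 CpGs had pooled levels of 44.9%, 42.8% and 41.6%, and their SD of 1.66 points was the smallest of the 446. Its level was 37.2% and 39.1% with both supplements on day 2 and day 5, 43.9% and 51.5% with L-proline, 46.7% and 39.7% with vitamin C, and 47.7% and 45.7% in untreated cells. All CpGs of the tile stood near its level. The libraries with both supplements were the lowest on each day, on day 5 close to vitamin C alone.

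On chromosome 12, the tile from 110778001 to 110779000 lies between Begain and Dio3os, an interval that holds the imprinted genes Meg3, Dlk1, Rtl1, Mirg and Rian. Its 3 CpGs had 55.6%, 51.6% and 51.8%. It read 55.1% and 51.4% with both supplements, 58.1% and 50.6% with L-proline, 47.6% and 51.5% with vitamin C, and 48.7% and 58.9% in untreated cells. A further tile of the same interval, from 111419001 to 111420000, was instead of the kind with a high CpG between lower ones, with CpGs from 39.6% to 91.9% and a span of 49 bases. Tiles in the same interval thus differed in the arrangement of their CpGs.

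On chromosome 17, the tile from 12935001 to 12936000 lies 26.5 kb from the promoter of Igf2r, the receptor that clears insulin-like growth factor 2, between it and Map3k4. Airn, the antisense RNA of the Igf2r locus, is in the same interval. Its 9 CpGs had pooled levels of 24.6% to 54.5%, and the tile read 39.5% and 54.7% with both supplements on day 2 and day 5, 45.2% and 48.0% with L-proline, 46.0% and 35.5% with vitamin C, and 38.5% and 44.1% in untreated cells. It had 262 to 546 reads per library. The treatments did not keep 1 order over the days.

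Of the other lists counted between flanking promoters within 1.5 Mb, zinc finger genes (Zfp) were beside 18 intermediate tiles, olfactory receptor genes (Olfr) beside 5 and vomeronasal receptor genes (Vmn) beside 3, the flanking genes included. Of 12 germline genes, Dazl was beside 2, and clustered protocadherins and Hox genes were beside 0. The same counts were not made for the other eligible tiles, so they cannot be read as many or few. They also depend on how wide the intervals are and carry no test.

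Across the treatments, the mean level of the intermediate tiles differed in the same direction as that of the eligible tiles, by less in each comparison. With both supplements rather than L-proline alone it differed by -4.85 points on day 2 and -8.53 on day 5, against -7.39 and -14.9 for the eligible tiles. With vitamin C rather than no supplement it differed by -3.86 and -8.45 points, against -5.54 and -12.9. For L-proline over untreated cells the differences were 4.13 points on day 2 and 2.52 on day 5, against 5.66 and 6.48, and for both over vitamin C they were 3.14 and 2.43, against 3.81 and 4.45. In the additive model the difference of the median tile was -6.19 points for vitamin C and 2.96 for L-proline in the intermediate tiles. Over all 50167 tiles of that model it was -5.07 and 1.60. These tiles outnumber the eligible tiles, so the tile set changed here as well as the measure. These medians therefore cannot be set against the means above, and the median over the eligible tiles was not tested. The bounds that chose the tiles limit all of these values.

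Tiles chosen on 1 day were therefore compared on the other. The 571 tiles at 35% to 65% in all 4 libraries of day 5 were compared on day 2, and the 1794 chosen on day 2 were compared on day 5. With vitamin C the level averaged 49% ± 3.21, against 60.1% ± 6.66 without it (SD, n = 4 matched pairs), a difference of -11.1 ± 6.95 points, lower in 4 of 4. On day 2 the differences were -5.45 with and -4.66 without L-proline, and on day 5 they were -17.6 and -16.5. Flipping the signs of 4 pairs in an exact permutation test gives at best p = 0.125, which was reached here, and adjustment over 6 tests left it so. Other tiles at 35% to 65% in the untreated library of the choosing day differed by -19.1 ± 8.91 points. The chosen tiles minus these other tiles gave 8.0 ± 2.33 points, positive in each of the 4 pairs (p = 0.125, exact permutation test). The other tiles lay outside the bounds in a treated library of the choosing day. The choice itself thus favours a smaller difference in the chosen tiles, and the comparison cannot tell this apart from a property of the tiles.

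With L-proline the tiles chosen on the other day averaged 57.3% ± 8.02, against 51.8% ± 7.20 without it, a difference of 5.49 ± 1.30 points (SD, n = 4 matched pairs), higher in 4 of 4. The other tiles at this level in untreated cells differed by 9.65 ± 2.25 points. The difference between the tile sets, which the choice of tiles favours here as well, was -4.16 ± 1.52 points, negative in 4 of 4. Both had p = 0.125 in the exact permutation test. No result of these 4 pairs can pass 0.05 in this design, so direction and size are all they give.

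Belonging to the set depended on the library. Of tiles at 35% to 65% in 7 libraries, the share that was also so in the library left out was 98.5% for both supplements on day 2 and 54.9% for L-proline on day 5. Without L-proline on day 5 to choose them, 446 of 813 stayed inside the bounds and 367 lay above 65%. For the remaining libraries the share was 83.2% to 97.6%.

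A limma model of 50167 tiles, in which the supplements and the day add up, called 11645 (23.2%) lower with vitamin C. A call needed a limma adjusted p under 0.05 together with 10 points of difference. Of the 446 intermediate tiles 4 (0.897%) were called lower. The bounds act on the same levels as the model, so these calls are a description. The 4 were tiles on chromosome 5 from 148124001 (-21.8 points), chromosome 2 from 82881001 (-22.0 points), chromosome 2 from 172003001 (-17.9 points) and chromosome 14 from 49101001 (-17.3 points). None of the intermediate tiles was called with a minimum of 20 reads, or without any one of the 4 libraries of day 5. Calls over all tiles were not counted in these fits, so whether they fell likewise is not known. At an unadjusted p under 0.05 limma had 17 (3.81%) lower and 0 higher, against 47.7% and 0.588% of all tiles. For L-proline and for day limma called 0 of the 446 and 0 (0%) of the 50167. At an unadjusted p under 0.05 it had 1 of the 446 (0.224%) higher for L-proline and 0 for day, against 15.2% and 6.55% of all tiles.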

How the data were processed

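RRBS was done on 8 libraries of mouse embryonic stem cells, grouped by treatment and day from the labels. Per the submitters' processing notes, which give no roles, CASAVA, BSMAP 2.88 and the build mm9 were used. The deposited files give for each CpG the fraction of reads methylated (0 to 1) and the coverage in reads, at least 10, as the authors made them. Coverage, written to 2 decimals, was exactly a whole number for 99.3% to 99.6% of CpGs. The handling of duplicates, conversion and strands is not given in the sources.

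CpGs listed in all 8 files were summed into tiles of 1 kb; pooled levels weight libraries by coverage. Library values were compared with exact two-sided sign-flip permutation tests (Python 3.11.15, numpy 2.4.6). The limma fit (limma 3.58.1, R 4.3.3) used log2 of methylated over unmethylated reads with a pseudocount of 1, with a term each for the supplements and the day. Both were tested on simulated data. Of the 6 tests adjusted together, that of the share of CpG values used values that enter the choice of tiles, and its p is not given. P-values measure only the spread between these libraries, which may be technical, and the days of a treatment may share a culture. Intervals cover counting error only.

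No mm9 genome was used. RefSeq promoter windows (GRCm38.p6, 300 bases) were placed on the files' coordinates where at least 8 CpGs matched their spacing with no mismatch. This placed 7079 windows, against 12 when each was sought on a wrong chromosome, and 99.5% shared their offset with a neighbour.

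The tiles and lists were chosen with earlier results of these data known. Tiles named are those of the chain and the extremes in CpG spread, range, bounds and coverage; the Gm52707 tile, those near imprinted genes and those called by limma were added after their values had been seen. The imprinted-gene list was applied between flanking promoters, since the rule needed an mm9 annotation. Alternatives covered read minimum, bounds, tile starts, weighting, coverage, pseudocount and each library left out.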

Additional observations from a re-analysis of the deposited data

Results flagged for a closer look

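Over the intermediate tiles, the later day was lower with vitamin C and higher without it. The mean differed by -1.35 points with both supplements and by -0.646 with vitamin C alone, against 2.33 points with L-proline and 3.94 in untreated cells. The change with vitamin C minus that without it was -4.13 points. It drew attention because every library pair with vitamin C moved one way and every pair without it the other. This difference was not tested. Over all eligible tiles the changes were -1.07 and -1.71 points with vitamin C, and 6.47 and 5.64 without it, in the same order of treatments.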

How the results depend on the processing

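The number of intermediate tiles depended on the rule. It was 164 with a minimum of 20 reads, 1343 with bounds of 30% to 70% and 59 with bounds of 40% to 60%, against 446, and with each library left out in turn it was 453 to 813, with 813 reached without L-proline on day 5. The share of CpG values counted as intermediate was 41.9%, and 60.6% where 25% to 75% was counted. The difference between CpGs of intermediate and other tiles kept its sign under every alternative run, from -6.74 points in tiles with neither a spaced pair nor a CpG near 0 to -27.2 in tiles without a spaced pair, both added after the data had been seen. The share with another such tile nearby was 0.448% within 10 kb and 2.69% within 50 kb. The limma calls of intermediate tiles for vitamin C, 4 in all, fell to 0 at 20 reads, where 150 of the tiles were kept, and to 0 to 2 with each library left out; there were 0 without any one of the 4 libraries of day 5, 1 without both supplements on day 2 and 2 without each other library of day 2. Calls over all tiles were not counted in these fits, so the fall cannot be read as particular to the intermediate tiles. The cause was not tested. The differences in tiles chosen on the other day kept their sign throughout, from -8.88 to -13.2 points for vitamin C and 4.97 to 5.96 for L-proline with each pair left out, with p = 0.25 in the exact sign-flip permutation test, the smallest that 3 pairs allow. The labels carry no replicate numbers, so none could block the fit. The pairs above match libraries by day and the other supplement. Near 25 reads, as in most libraries of day 5, counting error is about 10 points for a CpG in the middle of the scale, so the level of a single CpG in 1 library is coarse.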
